A study of Homo sapiens with 2 samples.

Results

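Chromosome 9 was followed gene by gene in A549 cells that carried ZNF300 on a lentiviral vector. They were set against A549 cells that carried a control vector with a random DNA sequence. Its members were all genes located on chromosome 9. They were selected on signal as well as on place: a gene counted as detected when a probe set annotated to that gene and to no other reached the median signal of an array in 1 array or more. On the array, 776 chromosome 9 genes of 19777 genes in all had a probe set of their own, and 538 of 13221 detected genes lay on chromosome 9. The other 238 chromosome 9 genes stayed below the median in both arrays. Each gene was represented by its detected probe set of highest mean log2 signal, and the genes were put in order by their starts. The chromosome itself was chosen with its shift in these 2 arrays already known, so the values that follow describe that shift and do not test it.

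The A549-ZNF300 array was made from A549 cells carrying LV5, a lentiviral vector, with transcript variant 1 of ZNF300. The A549-LV5 array was made from A549 cells with the LV5 control vector, the cells called A549-ZNF300-NC in the study. A549 is an established human lung adenocarcinoma line, and ZNF300 encodes a zinc finger protein of the nucleus that carries a KRAB domain. Total RNA of cultured cells was hybridised to Affymetrix Human Genome U133 Plus 2.0 arrays. There were 2 arrays, one for each condition. Because neither condition was repeated, no replicate error and no p-value could be given. All differences below are log2 signals of A549-ZNF300 minus log2 signals of A549-LV5, so that 1 is a 2-fold higher signal in A549-ZNF300 and -1 a 2-fold lower one.

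The ZNF300 probe set read 8.91 on the log2 scale in A549-ZNF300 and 4.16 in A549-LV5, in the direction of the labels. All 9 markers of A549 and of epithelial cells that could be read were detected, among them AKR1B10 at 15.19 in A549-ZNF300 and 13.12 in A549-LV5 and NQO1 at 14.84 in A549-ZNF300 and 14.78 in A549-LV5. The simple-epithelium keratin KRT19 was the farthest apart, at 11.08 in A549-ZNF300 and 2.29 in A549-LV5, below the array median there. It was not alone. KRT7, KRT8, EPCAM and KRT18 were also higher in A549-ZNF300, by 4.92, 4.32, 2.37 and 1.55, and AKR1C2 and AKR1C1 by 1.05 and 0.82. No marker of this list was lower, and NQO1 was the closest to level. Of 8 markers of other cell types, 4 were detected, of which the fibroblast collagen gene COL1A1 was brightest, at 10.45 in A549-ZNF300 and 7.90 in A549-LV5, while PTPRC, CDH5, ALB and DES stayed below the median in both arrays. What part these differences between the cultures had in the values of chromosome 9 was not tested. The median over all 54675 probe sets was 6.03 in A549-ZNF300 and 6.14 in A549-LV5.

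Human chromosome 9 carries a large block of constitutive heterochromatin next to the centromere on its long arm, where few genes lie. Its short arm holds the 9p21 tumour suppressor locus with CDKN2A and CDKN2B, the type I interferon genes and MTAP, a region often lost from tumour genomes and known to be deleted in A549 at CDKN2A. The tip of the short arm holds JAK2 and CD274, and the tip of the long arm is dense in genes, among them the oncogenes ABL1 and NOTCH1 and the tumour suppressor TSC1. Most neighbours along a chromosome have unrelated functions, so a chromosome is a set of genes defined by place and not by role. An expression array measures RNA only, and DNA copy number was not measured here.

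Most of chromosome 9 gave higher signals in A549-ZNF300. Of its 538 detected genes, 362 were higher and 176 were lower in A549-ZNF300, or 67.3% higher, where the share was 46.6% over all detected genes. The median difference was 0.34 on chromosome 9 and -0.08 over the 12683 detected genes elsewhere, which set the chromosome 0.42 above the rest. The quartiles were -0.20 and 0.92 on chromosome 9 and -0.64 and 0.48 elsewhere. Both quartiles and the median thus lay higher on chromosome 9, although 176 of its genes stood below 0.

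At least 2-fold higher were 118 chromosome 9 genes, or 21.9%, against 13.6% of all detected genes. At least 2-fold lower were 49 chromosome 9 genes, or 9.11%, against 15.4% of all detected genes. Most members were within that range: 371 genes were less than 2-fold apart, of which 244 were higher and 127 lower in A549-ZNF300. Among these modest differences, too, the higher side was the more frequent. Over all detected genes, at any size of difference, 46.6% were higher.

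Among 23 chromosomes, chromosome 9 had the highest median, and chromosome 7 came next with a median of 0.24 over 615 genes, of which 62.4% were higher. Chromosome 15 followed with a median of 0.20 over 447 genes. At the other end, chromosome 6 had a median of -0.52 over 708 genes, of which 26.6% were higher. Chromosome 9 was thus the upper end of a range in which several chromosomes stood away from 0, and no test of the distance between chromosomes 9 and 7 could be made.

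**Figure D1:**
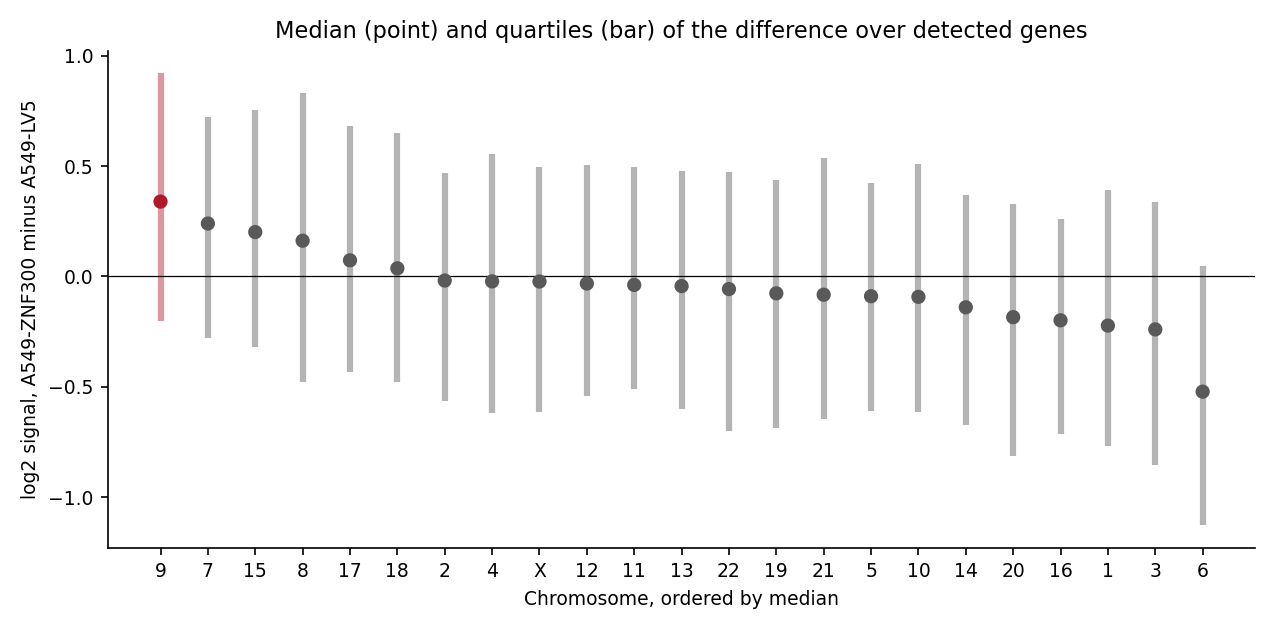
Difference in log2 signal, A549-ZNF300 minus A549-LV5, over the detected genes of each chromosome, with points for medians, bars for quartiles and chromosomes in order of their medians. Chromosome 9 (red) is at the left with a median of 0.34, and chromosome 6 is at the right with a median of -0.52.

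The shift was not limited to dim genes. When all detected genes were divided into 3 groups of equal size by mean signal, the 140 brightest chromosome 9 genes had a median difference of 0.53 and 79.3% of them were higher, against a median of -0.02 and 48.7% for equally bright genes elsewhere. The 226 genes of the middle group had a median of 0.29 on chromosome 9, against -0.10 elsewhere. The 172 dimmest genes had a median of 0.26, against -0.15 elsewhere. The distance to genes elsewhere was 0.55 in the brightest group, 0.39 in the middle group and 0.41 in the dimmest, so that it was largest where signals were strongest.

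In the 238 chromosome 9 genes that reached the median in neither array, the median difference was -0.16 and 45.8% were higher, close to the -0.12 and 46.7% of the 6318 undetected genes elsewhere. Such signals lie near background. Of the detected members, 463 were at or above the median in both arrays, 48 in A549-ZNF300 only and 27 in A549-LV5 only, and the genes of those last groups were bound to differ. With only the 463 kept, the median was 0.32, 67.8% were higher, and 88 were up and 29 down by 2-fold or more, where up and down mean higher and lower in A549-ZNF300. Elsewhere, the same requirement left 10714 of 12683 genes. Those 10714 had a median of -0.08, with 8.86% of them up and 11.8% down by 2-fold or more. The remaining genes elsewhere were not split by array, so the 48 and 27 members cannot be set beside a like split.

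Many members had a probe set that the choice of representative had not used. For 280 chromosome 9 genes with at least 2 detected probe sets, the second brightest gave a median difference of 0.35, the same as the 0.35 of the brightest, and 68.6% of the second probe sets were higher in A549-ZNF300. Among 6327 genes elsewhere, the second probe sets had a median of -0.07 and 46.7% were higher. Both probe sets had the same sign in 229 of the 280 genes, and in 4929 of the 6327 genes elsewhere. Of 76 genes at least 2-fold apart by the first, 72 had the same sign and 49 were also at least 2-fold apart by the second. Elsewhere, 1342 of 1449 such genes had the same sign and 990 were again at least 2-fold apart. All detected probe sets of a gene stood on one side in 203 genes, 146 of them higher and 57 lower, and the probe sets of 77 genes were mixed. Elsewhere, 4256 genes stood on one side, 1897 of them higher and 2359 lower, and 2071 were mixed. The agreement between probe sets was thus near that elsewhere. The probe sets of a gene read the same 2 RNA samples, so they check the probes and not the cells.

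Long non-coding RNAs and protein-coding genes had like medians. The 495 protein-coding members had a median difference of 0.34, and 67.5% of them were higher. The 31 long non-coding members had a median of 0.34 as well, with 22 higher and 9 lower, against a median of -0.12 over 763 detected long non-coding genes elsewhere.

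Both arms took part to a like degree. The long arm had a median difference of 0.33 over 401 genes, 270 of them higher and 131 lower, with 88 up and 40 down by 2-fold or more. On the short arm, the median was 0.37 over 137 genes, 92 of them higher and 45 lower, with 30 up and 9 down by 2-fold or more. The 2 medians were 0.04 apart, which is small beside the quartiles of either arm, and other ways of processing the signals put either arm above the other. Positions here and below are those of the RefSeq annotation of GRCh38.p14, and the arms were divided at the widest stretch of chromosome 9 without a gene start.

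The shift was seen along both arms, window by window. In windows of 10 Mb counted from the end of the short arm, 13 windows held a detected gene and all 13 had a median above 0 and more genes higher than lower in A549-ZNF300. The exceptions under other settings were window 2, at -0.072 with the arrays centred on housekeeping genes, and window 5, at -3.06 with undetected genes included. Among the 11 windows with at least 10 genes, the medians lay between 0.0063 and 0.58. With signals used as deposited, the medians were 0.48 in window 1 (26 genes), 0.58 in window 3 (15 genes), 0.46 in window 4 (76 genes), 0.44 in window 8 (26 genes) and 0.57 in window 12 (40 genes). Windows 13 and 14 at the end of the long arm, with 111 and 105 genes the richest, had medians of 0.33 and 0.32. Without probe sets that may match several transcripts, the median of window 4 was 0.13 and that of the short arm 0.20, and with undetected genes included, window 3 had 0.22 and window 12 had 0.24. Leaving out any 1 window moved the median of the chromosome no further than to between 0.33 and 0.34.

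**Figure D2:**
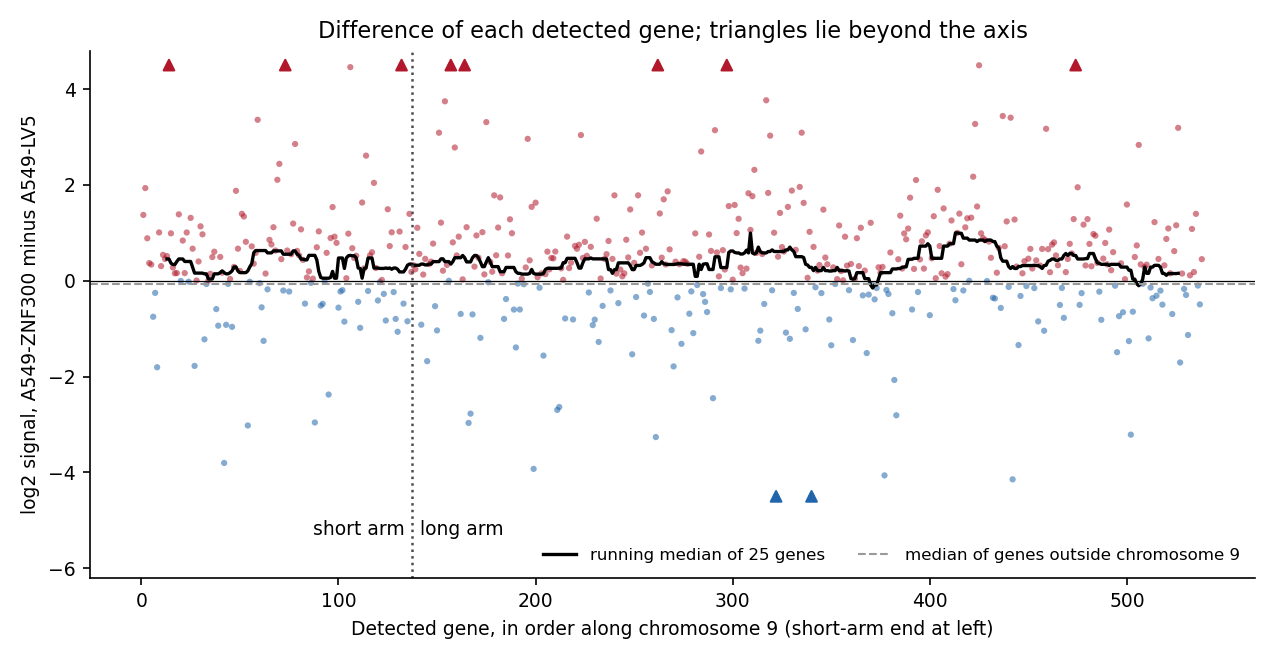
Difference in log2 signal, A549-ZNF300 minus A549-LV5, of the 538 detected genes (red, higher; blue, lower) in their order along chromosome 9, with triangles for genes beyond the drawn range. The running median of 25 genes (black line) stays above 0 in 507 of 514 positions on both sides of the arm boundary (dotted), and above the median of the genes outside chromosome 9 (dashed) nearly everywhere.

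A running median of 25 consecutive genes was above 0 in 507 of 514 positions. Its lowest value, -0.15, was centred on ZNF79 in window 13, a stretch that holds the endoplasmic reticulum chaperone gene HSPA5, the Ral exchange factor gene RALGPS1, the ribosomal protein gene RPL12 and the sialyltransferase genes ST6GALNAC4 and ST6GALNAC6, all lower in A549-ZNF300. Its highest value, 1.0, was centred on KYAT1 and on its neighbour LRRC8A in the same window, between the centriole gene ODF2 and the gene of the long non-coding RNA LOC105376292. A narrow peak of 0.995 stood at RGS3 in window 12. The lowest and the highest running medians thus lay within 1 window.

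Runs of neighbouring genes on one side were mostly runs of higher genes. The longest were 11 genes from ODF2 to ENDOG on the long arm, with a median of 0.72, and 11 genes from PLPP6 to ERMP1 on the short arm, with a median of 0.51. A run of 8 genes from PTPA to PTGES had a median of 1.43, and 5 of its members were at least 2-fold higher. Of 537 pairs of neighbours in order, 307 had the same sign, or 57.2%, with 246 pairs both higher and 61 pairs both lower. With 67.3% of all members higher, runs of higher genes and pairs of one sign are frequent in any order of the genes. These counts thus largely restate that share, and whether like genes cluster along the chromosome was not tested.

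**Figure D3:**
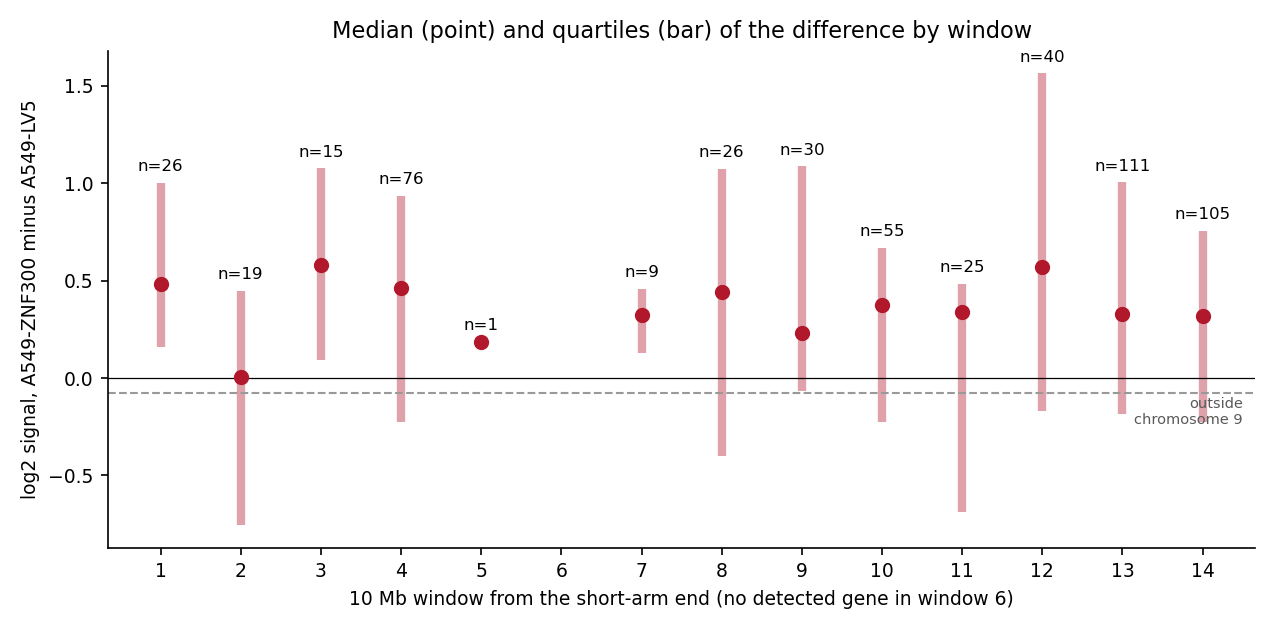
Median (point) and quartiles (bar) of the difference in log2 signal, A549-ZNF300 minus A549-LV5, in each 10 Mb window of chromosome 9 from the end of the short arm, with the number of detected genes above each bar. All medians lie above that of the genes outside chromosome 9 (dashed), with window 2 the lowest of the windows with at least 10 genes.

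At the end of the short arm, window 1 (0 to 10 Mb) had 21 genes higher and 5 lower. SMARCA2, an ATPase of the SWI/SNF chromatin remodelling complex, read 10.04 in A549-ZNF300 and 8.11 in A549-LV5, a difference of 1.93, although its 5 detected probe sets spread between -1.29 and 2.32. ERMP1, a metallopeptidase of the endoplasmic reticulum, read 11.66 in A549-ZNF300 and 10.27 in A549-LV5. The kinase gene JAK2 read 7.71 in A549-ZNF300 and 7.20 in A549-LV5, and CD274, which encodes the checkpoint ligand PD-L1, read 7.49 in A549-ZNF300 and 7.33 in A549-LV5. Both were thus well under 2-fold apart, and their other detected probe sets had 0.14 for JAK2 and 0.20 for CD274.

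SLC1A1, which encodes a glutamate transporter, went the other way in the same window, at 7.70 in A549-ZNF300 and 9.50 in A549-LV5. INSL4, an insulin-like peptide gene otherwise known from the placenta, had the largest difference as deposited. It read 10.29 in A549-ZNF300 and 2.74 in A549-LV5, where it was called absent, a difference of 7.55, or 4.15 when the A549-LV5 signal was raised to the median of its array, which is below the 5.22 of ALDH1A1, the 4.88 of COL5A1 and the 4.46 of TPM2. Of a list of 32 measured genes of this end of the arm, 23 were detected, of which 19 were higher, with a median of 0.51.

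Window 2 (10 to 20 Mb) stood apart from its neighbours. Its 19 genes had a median of 0.0063, 11 of them higher and 8 lower, with 1 up and 3 down by 2-fold or more. PLIN2, which encodes the coat protein of lipid droplets, read 10.63 in A549-ZNF300 and 14.44 in A549-LV5, a difference of -3.80, and its second probe set had -0.56. LURAP1L read 9.43 in A549-ZNF300 and 11.21 in A549-LV5. PSIP1, the chromatin-bound cofactor LEDGF, was level by its brightest probe set, at 12.51 in A549-ZNF300 and 12.50 in A549-LV5. Its other detected probe sets ranged between -1.37 and 0.86. RPS6, a protein of the small ribosomal subunit, was level at 15.33 in A549-ZNF300 and 15.40 in A549-LV5. Without this window, the other 118 genes of the short arm had a median of 0.46.

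Window 3 (20 to 30 Mb) holds the 9p21 locus. CDKN2A, which encodes the inhibitors p16 and ARF, was measured by 3 probe sets, none of which reached the array median in either array. The brightest read 6.03 in A549-ZNF300, with a distance of -0.0065 to the median of that array, and 4.95 in A549-LV5. CDKN2B stayed below the median as well. MTAP, which salvages methionine from methylthioadenosine and lies beside them, read 9.51 in A549-ZNF300 and 8.70 in A549-LV5 by its brightest probe set, while 4 of its 6 probe sets were below the median and the other detected one had a difference of -0.32. The genes around the locus differed among themselves.

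MIR31HG, the host transcript of miR-31, read 10.21 in A549-ZNF300 and 8.81 in A549-LV5. HACD4, a dehydratase of very long chain fatty acid synthesis, read 7.54 in A549-ZNF300 and 5.67 in A549-LV5, below the median there. MOB3B, a member of the MOB family of kinase adaptors, read 9.60 in A549-ZNF300 and 6.24 in A549-LV5, although its 4 detected probe sets spread between -0.79 and 3.36. On the lower side, ELAVL2, a neuronal RNA-binding protein gene, read 4.03 in A549-ZNF300, below the median there, and 7.05 in A549-LV5, a difference of -3.02 that became -1.02 against the array median. MLLT3, a component of the super elongation complex, read 8.68 in A549-ZNF300 and 9.64 in A549-LV5. C9orf72, whose repeat expansion causes amyotrophic lateral sclerosis, was level by its brightest probe set, at 9.27 in A549-ZNF300 and 9.32 in A549-LV5. Its other detected probe set had a difference of 0.82. Of 34 measured genes of the locus, 15 were detected and 11 of them were higher, with a median of 0.58, which became 0.36 when dim signals were raised to the array median.

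The rest of the short arm, window 4 (30 to 40 Mb), had 48 genes higher and 28 lower. TPM2, the gene of beta-tropomyosin, read 13.38 in A549-ZNF300 and 8.93 in A549-LV5, a 22-fold higher signal, and its other probe set had a difference of 2.53. AQP3, a channel for water and glycerol, read 9.07 in A549-ZNF300 and 3.10 in A549-LV5, where it was called absent. Its difference of 5.97 became 2.93 with the A549-LV5 signal raised to the median. These were the largest differences of the window, both on the higher side.

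BAG1, a nucleotide exchange factor of HSP70 chaperones, read 11.23 in A549-ZNF300 and 8.79 in A549-LV5, and its 3 probe sets lay between 1.45 and 2.44. B4GALT1, a galactosyltransferase of the Golgi, read 12.11 in A549-ZNF300 and 10 in A549-LV5, the smallest of its 4 probe sets, which lay between 2.11 and 3.67. MELK, a mitotic kinase, read 12.52 in A549-ZNF300 and 10.48 in A549-LV5. The segregase gene VCP read 12.64 in A549-ZNF300 and 11.75 in A549-LV5. RIGI, the sensor of viral RNA, was among the 4 genes at least 2-fold lower, at 8.86 in A549-ZNF300 and 10.11 in A549-LV5. ANXA2P2, at 14.58 in A549-ZNF300 and 13.39 in A549-LV5, is a near copy of ANXA2 on another chromosome, and its probes cannot tell the transcripts apart with certainty.

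Between the arms little was measured. Window 5 held 1 detected gene, the pseudogene FRG1HP at 8.67 in A549-ZNF300 and 8.49 in A549-LV5, and window 6 held none. Window 7 (60 to 70 Mb) held 9, several of them pseudogenes or copies of other genes, with a median of 0.32.

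Window 8 (70 to 80 Mb) held the brightest of the large differences. ALDH1A1, the retinaldehyde dehydrogenase that makes retinoic acid, read 15.15 in A549-ZNF300 and 9.92 in A549-LV5, a 37.4-fold higher signal with 1 probe set detected. CEMIP2, a cell-surface hyaluronidase, read 11.56 in A549-ZNF300 and 8.47 in A549-LV5. PCSK5, a proprotein convertase, read 10.01 in A549-ZNF300 and 5.49 in A549-LV5, and its 3 probe sets lay between 3.20 and 4.52. It was below the median in A549-LV5, and its difference was 3.86 against that median. ANXA1, a phospholipid-binding annexin, was among the brightest genes of the chromosome in both arrays, at 15.04 in A549-ZNF300 and 14.24 in A549-LV5. GCNT1, an enzyme that branches O-glycans, was lower by both probe sets, at 6.59 in A549-ZNF300 and 9.56 in A549-LV5.

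The window upstream of the ALDH1A1 start, shown because that gene had the largest difference among bright genes, held the motif CCAAT once in capitals, starting 74 bases before the start. TPM2, the gene with the next largest, held the motif GGGCGG, a GC box, starting 46 and 2 bases before its start. COL5A1, shown as the large difference at the other end of the chromosome, held the same motif on the opposite strand at 230 and 214 bases. Each run is 300 bases of RefSeq promoter sequence on GRCh38.p14, written 5′ to 3′ on the strand of the gene, from 250 bases before to 50 bases after the start, with the motifs in capitals. ALDH1A1 lies at chr9:72953004-72953303 on the minus strand, TPM2 at chr9:35690007-35690306 on the minus strand and COL5A1 at chr9:134641553-134641852 on the plus strand.
ALDH1A1: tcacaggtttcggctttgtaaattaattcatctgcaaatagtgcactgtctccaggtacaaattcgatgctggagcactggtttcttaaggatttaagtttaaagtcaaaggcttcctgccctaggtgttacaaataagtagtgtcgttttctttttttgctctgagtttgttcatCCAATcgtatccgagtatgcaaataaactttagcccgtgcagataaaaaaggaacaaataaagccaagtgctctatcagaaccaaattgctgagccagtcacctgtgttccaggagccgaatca
TPM2: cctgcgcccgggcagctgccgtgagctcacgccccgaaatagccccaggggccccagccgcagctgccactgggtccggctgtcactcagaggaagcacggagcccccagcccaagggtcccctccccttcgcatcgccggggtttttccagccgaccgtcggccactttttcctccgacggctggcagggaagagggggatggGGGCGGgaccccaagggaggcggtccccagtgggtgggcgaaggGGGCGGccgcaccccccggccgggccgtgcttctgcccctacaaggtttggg
COL5A1: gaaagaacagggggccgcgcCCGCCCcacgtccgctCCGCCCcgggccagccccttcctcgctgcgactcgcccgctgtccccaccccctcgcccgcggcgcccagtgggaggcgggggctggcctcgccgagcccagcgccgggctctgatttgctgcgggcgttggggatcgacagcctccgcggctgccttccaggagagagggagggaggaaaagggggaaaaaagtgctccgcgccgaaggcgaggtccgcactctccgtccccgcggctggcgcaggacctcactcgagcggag

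In those windows of all 469 detected chromosome 9 genes with a promoter in the table, searched on both strands, CCAAT was present in 35.8%, GGGCGG in 73.1% and TATAAA in 6.82%. In 10208 detected genes elsewhere, the shares were 36.3% for CCAAT, 68.5% for GGGCGG and 5.87% for TATAAA. Over all 27305 promoters of the table, detected or not, they were 35.7%, 44.6% and 12%. By these letters the chromosome 9 promoters looked much like those of other detected genes, and a match is no evidence of a bound factor.

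Windows 9 and 10 (80 to 100 Mb) had medians of 0.23 and 0.37. SHC3, an adaptor of receptor tyrosine kinases, had the largest difference on the lower side among bright genes. Its brightest probe set read 6.75 in A549-ZNF300 and 10.67 in A549-LV5, or 15.2-fold lower, while its other detected probe set had a difference of only -1.33. AOPEP, an aminopeptidase, read 12.54 in A549-ZNF300 and 9.50 in A549-LV5, although its 3 probe sets ranged between -0.11 and 3.04. CKS2, a subunit that binds cyclin-dependent kinases, read 13.83 in A549-ZNF300 and 12.20 in A549-LV5. TGFBR1, a receptor of transforming growth factor beta, read 12.41 in A549-ZNF300 and 10.63 in A549-LV5 by its brightest probe set, while the others of its 3 went down to -0.41. PTCH1, the Hedgehog receptor, read 9.20 in A549-ZNF300 and 8.39 in A549-LV5. NFIL3, a repressor of the bZIP family, was lower, at 10.48 in A549-ZNF300 and 12.04 in A549-LV5.

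Window 11 (100 to 110 Mb) was near balance among large differences, with 14 genes higher and 11 lower and, by 2-fold or more, 4 up and 5 down. Window 12 (110 to 120 Mb) had 28 higher and 12 lower, with 14 up and 4 down. In all, 9 of the 13 windows had more genes up than down by 2-fold or more. SMC2, a core subunit of condensin, read 10.81 in A549-ZNF300 and 8.94 in A549-LV5. POLE3, a histone-fold subunit of DNA polymerase epsilon, read 12.11 in A549-ZNF300 and 10.29 in A549-LV5. PAPPA, a secreted protease that cleaves insulin-like growth factor binding proteins, read 13.73 in A549-ZNF300 and 10.70 in A549-LV5, and its 8 detected probe sets all lay between 1.46 and 3.38.

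SUSD1 read 9.45 in A549-ZNF300 and 6.31 in A549-LV5, where it was called absent. TNFSF15, a ligand of the tumour necrosis factor family, read 9.69 in A549-ZNF300 and 5.92 in A549-LV5, and the matrix glycoprotein gene TNC read 7.57 in A549-ZNF300 and 5.74 in A549-LV5. Both of the last were below the median in A549-LV5 only. ABCA1, the exporter of cholesterol, and UGCG, the glucosylceramide synthase, were lower by every detected probe set. ABCA1 read 11.24 in A549-ZNF300 and 13.02 in A549-LV5, and UGCG read 11.70 in A549-ZNF300 and 14.15 in A549-LV5. KLF4, a zinc finger factor of epithelial differentiation, read 9.64 in A549-ZNF300 and 9.25 in A549-LV5. ZNF883 read 6.09 in A549-ZNF300 and 0.78 in A549-LV5, and its difference of 5.32 came to -0.050 once the lower signal was raised to the array median.

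The end of the long arm, windows 13 and 14 (120 to 140 Mb), held 216 of the detected genes. COL5A1, the alpha chain of type V collagen, read 11.02 in A549-ZNF300 and 5.11 in A549-LV5, where it was called absent. Its 3 detected probe sets had differences between 5.91 and 7.82, and the difference was 4.88 with the A549-LV5 signal raised to the median. ASS1, the argininosuccinate synthase, read 10.12 in A549-ZNF300 and 6.68 in A549-LV5, or 10.8-fold higher. DNM1, a dynamin GTPase of endocytosis, read 10.24 in A549-ZNF300 and 8.14 in A549-LV5.

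HSPA5, the chaperone BiP of the endoplasmic reticulum, was among the brightest genes of the chromosome and was lower, at 13.94 in A549-ZNF300 and 15.18 in A549-LV5. ST6GALNAC4, a sialyltransferase, read 8.34 in A549-ZNF300 and 10.41 in A549-LV5. NEK6, a mitotic kinase, read 9.95 in A549-ZNF300 and 11.29 in A549-LV5. LAMC3, a laminin chain, read 3.27 in A549-ZNF300 and 7.42 in A549-LV5, below the median in A549-ZNF300. SET, an inhibitor of protein phosphatase and a histone chaperone, was higher at 13.92 in A549-ZNF300 and 13.20 in A549-LV5.

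Of the best known cancer genes of this end, ABL1 and NOTCH1 were close to level. ABL1 read 10.92 in A549-ZNF300 and 11.04 in A549-LV5, NOTCH1 read 8.51 in A549-ZNF300 and 8.62 in A549-LV5, and TSC1 read 9.97 in A549-ZNF300 and 9.65 in A549-LV5. The difference of TSC1 was close to the median of the chromosome, and those of ABL1 and NOTCH1 were nearer to the median of other chromosomes.

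**Figure D4:**
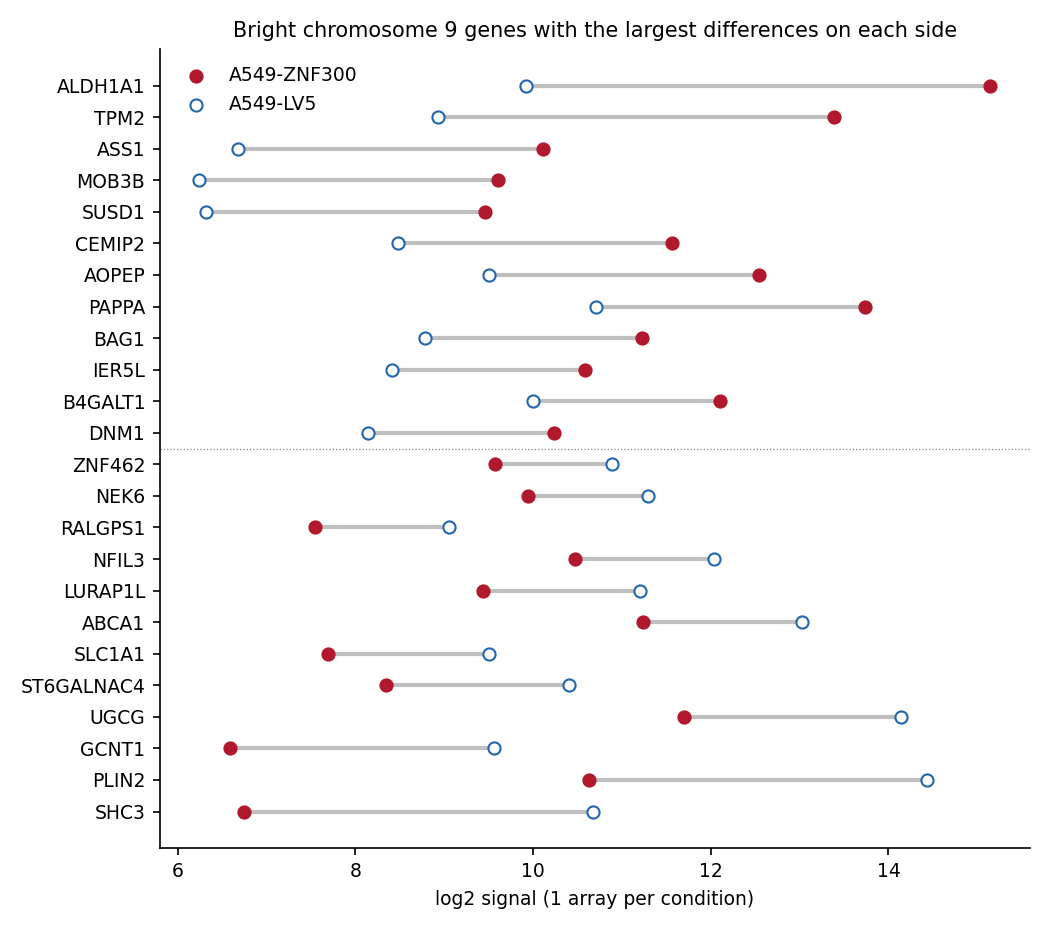
Log2 signals in A549-ZNF300 (filled) and A549-LV5 (open) of the 12 chromosome 9 genes with the largest differences on each side, among genes at or above the median in both arrays and the 75th percentile in at least 1. The genes higher in A549-ZNF300 lie above the dotted line, with ALDH1A1 at 15.15 and 9.92 at the top, and SHC3 at 6.75 and 10.67 is at the bottom.

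Among bright genes, those at or above the median in both arrays and at or above the 75th percentile in at least 1, large differences were more frequent on the higher side. Of 340 such genes, 76 were up and 19 down by 2-fold or more, or 22.4% and 5.59%, against 9.96% and 12.3% of the 8091 equally bright genes elsewhere. By 4-fold or more, 13 were up and 5 down, or 3.82% and 1.47%, against 2.78% and 2.83% elsewhere. Of the 167 genes at least 2-fold apart, 50 were below the median in 1 array, and 24 of those stayed at least 2-fold apart when that signal was raised to the median. Detection calls were deposited for 145 of the 167 genes, and 104 of these were called present in both arrays, 25 absent in A549-LV5 and 12 absent in A549-ZNF300.

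The chromosome was also read in 9 lists of its own genes, most of them by function. The lists of the 9p21 locus and of the end of the short arm were set by place. They largely repeat windows 3 and 1 and add no separate view. In every list the median difference was above 0, between 0.18 and 0.80, and it stayed above 0 under the other settings. The signalling list came down to 0.019 with a filter on both arrays or without probe sets that may match several transcripts, and the transcription factors to 0.12 without those probe sets. Genes in any list numbered 289, with a median of 0.45 and 72.3% higher, and the other 249 had a median of 0.20 and 61.4% higher. Leaving out any 1 list left the median of the chromosome between 0.32 and 0.34, and no list moved it further. Over the whole chromosome, 21.9% of genes were up and 9.11% down by 2-fold or more, against 13.6% and 15.4% of all detected genes. A list with shares near those of the chromosome is not set apart from it.

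Most genes of cell division and DNA repair were higher, 88.6% of those detected. Of 50 measured genes 44 were detected, of which 39 were higher and 5 lower. Their median was 0.47, with 11 up and 1 down by 2-fold or more, or 25% and 2.27%, the first near the 21.9% of the whole chromosome. Besides MELK, SMC2, POLE3 and CKS2 these included FANCG, a subunit of the Fanconi anaemia core complex, with a difference of 1.54, PHF19, a subunit of the polycomb complex, with 1.54, and RMI1, which acts with the BLM helicase, with 1.11. The exception past 2-fold was NEK6.

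All 26 measured genes of translation and the ribosome were detected, 22 of them higher and 4 lower. Their median was 0.60, with 7 up, or 26.9%, and none down by 2-fold or more. NCBP1, a subunit of the nuclear cap-binding complex, had 1.78, the mitochondrial ribosomal protein gene MRPL50 had 1.40, GLE1, a factor of mRNA export, had 1.35, and the exosome subunit genes EXOSC2 and EXOSC3 had 1.24 and 1.01. The lower members were POLR1E, a subunit of RNA polymerase I, at -0.27, SNAPC3, of the snRNA-activating complex, at -0.07, and the cytoplasmic ribosomal protein genes RPL12 and RPS6. The ribosomal protein genes were among the brightest of the chromosome. RPL35 read 14.75 in A549-ZNF300 and 14.74 in A549-LV5, RPL12 read 14.85 in A549-ZNF300 and 15.23 in A549-LV5, and RPS6 was level as given above. Cytoplasmic ribosomal proteins have processed pseudogenes elsewhere in the genome, whose sequence their probes may share.

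**Figure D5:**
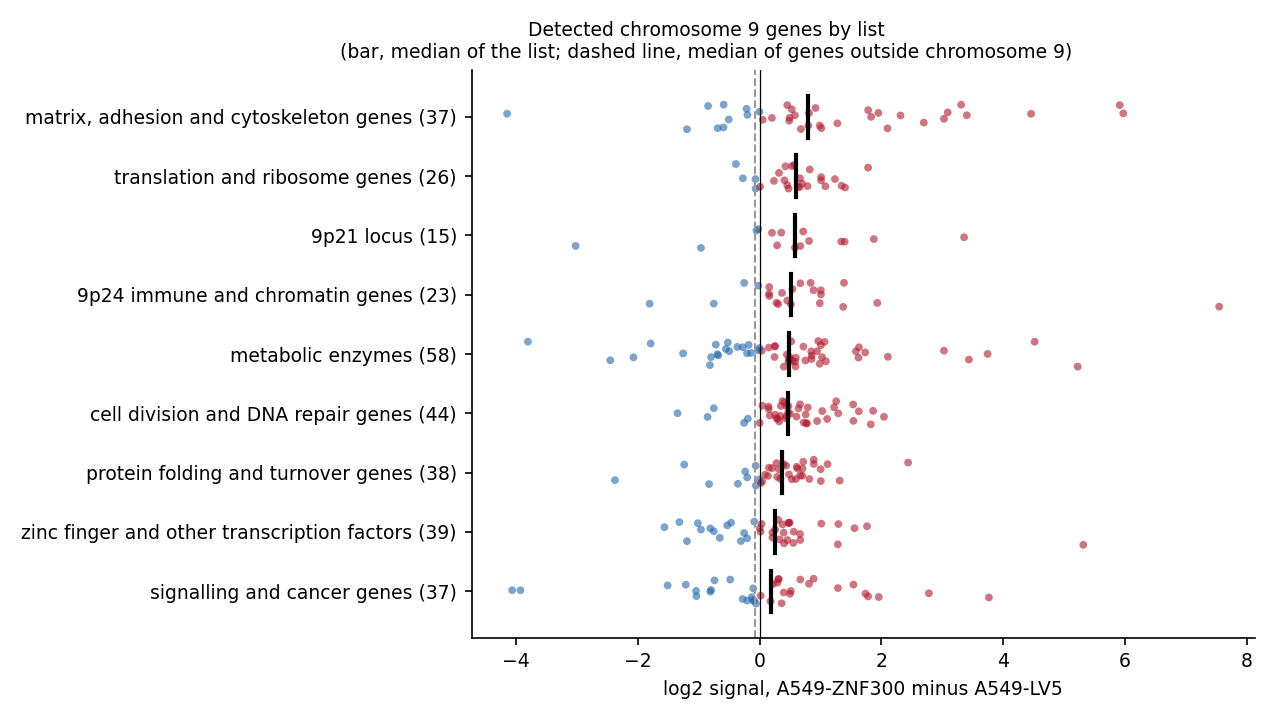
Difference in log2 signal, A549-ZNF300 minus A549-LV5, of the detected members of 9 lists of chromosome 9 genes (points, red for higher and blue for lower), with the number of members beside each name and black bars for medians. All medians lie above 0 and above the median of genes outside chromosome 9 (dashed), here from 0.80 for matrix, adhesion and cytoskeleton genes at the top to 0.18 for signalling and cancer genes at the bottom.

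Matrix, adhesion and cytoskeleton genes held several of the largest differences of the chromosome. Of 51 measured genes 37 were detected, 27 of them higher and 10 lower. Their median was 0.80, with 15 up and 2 down by 2-fold or more, or 40.5% and 5.41%. Once dim signals were raised to the array median, the list had a median of 0.68 and 13 genes were at least 2-fold higher. With only the 27 members above the median in both arrays, its median was 0.53, below the 0.60 of translation and ribosome genes. COL5A1, TPM2, CEMIP2, PAPPA, TNC and DNM1, described above, are among them. The list also holds genes of other roles, such as the channel AQP3, the receptor TGFBR1 and the corepressors TLE1, with a difference of 1.01, and TLE4, with -1.19. LAMC3 and TLE4 were the members at least 2-fold lower. COL1A1, a matrix gene of another chromosome, was also higher in A549-ZNF300, by 2.55.

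Metabolic genes went both ways. Of 66 measured genes 58 were detected, 38 higher and 20 lower. Their median was 0.49, with 14 up and 5 down by 2-fold or more, or 24.1% and 8.62%, near the shares of the whole chromosome. On the higher side were ALDH1A1 and ASS1, LCN2, a siderophore-binding lipocalin, with 1.73, SLC31A1, the copper importer, with 1.58, and the complex I subunit gene NDUFA8 with 1.62. On the lower side were the lipid genes PLIN2, UGCG and ABCA1, with ST6GALNAC4 and RIGI. The enzyme PSAT1 of serine synthesis was bright in both arrays, at 13.48 in A549-ZNF300 and 13 in A549-LV5. Thioredoxin, encoded by TXN, read 14.83 in A549-ZNF300 and 14.32 in A549-LV5.

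Protein folding and turnover genes differed little one by one. Of 39 measured genes 38 were detected, 29 higher and 9 lower. Their median was 0.37, with 5 up and 2 down by 2-fold or more, or 13.2% and 5.26%. Besides BAG1, the HSP40 gene DNAJA1 had 1.12, at 13.74 in A549-ZNF300 and 12.62 in A549-LV5, and the translocon subunit gene SEC61B had 1.01. HSPA5 and DNAJB5, another HSP40 gene, were the members at least 2-fold lower, and DNAJB5 was below the median in A549-ZNF300, at 5.30 there and 7.67 in A549-LV5.

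Signalling genes and transcription factors were the closest to balance. Of 56 measured genes of signalling and cancer 37 were detected, 20 higher and 17 lower. Their median was 0.18, with 7 up and 6 down by 2-fold or more, or 18.9% and 16.2%. On the higher side, TNFSF15 had 3.77 and TRPM6 had 2.78, both with A549-LV5 signals below the array median. The retinoid receptor gene RXRA had 1.29, and the neurotrophin receptor gene NTRK2 had 1.74. SHC3, RALGPS1, the Ral exchange factor gene RALGDS with -1.04 and TRAF1, an adaptor of tumour necrosis factor receptors, with -1.21 were on the lower side. SH2D3C, another adaptor gene, read 2.12 in A549-ZNF300 and 6.19 in A549-LV5, and its difference of -4.06 shrank to -0.15 against the array median.

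Of 56 measured genes of zinc finger and other transcription factors 39 were detected, 25 higher and 14 lower. Their median was 0.26, with 6 up and 4 down by 2-fold or more, or 15.4% and 10.3%. ZNF618 had a difference of 1.76 and ZFP37 one of 1.56. ZNF462 had -1.32, and LHX6, a LIM homeobox gene, had -1.01. The zinc finger genes of chromosome 9, the class to which ZNF300 itself belongs on chromosome 5, were thus found on both sides.

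Some neighbours share a stretch of DNA between their starts. There were 36 head-to-head pairs, in which 2 detected genes start within 1000 bases of each other and run apart on opposite strands. The 72 genes of these pairs had a median difference of 0.45, with 54 higher, against a median of 0.32 over the other 466 members. By 2-fold or more, 17 genes of the pairs were up and 2 down, or 23.6% and 2.78%. Of the other members, 101 were up and 47 down, or 21.7% and 10.1%, so that the shares up were nearly equal. In 22 of the 36 pairs, or 61.1%, both genes had the same sign, 20 pairs both higher and 2 both lower, close to the 57.2% of neighbours in general. As with neighbours, such a share largely restates how many genes were higher. That was 75% of the genes in pairs and 67.3% of all members. The shares of one sign thus rest on unlike bases, and no test of their difference was made.

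Of these, 3 pairs are shown as examples of like and unlike partners. In the pair of CDC26, a subunit of the anaphase-promoting complex, and PRPF4, a splicing factor of the U4/U6 snRNP, the starts are 86 bases apart, and both genes were higher. CDC26 read 11.34 in A549-ZNF300 and 10.35 in A549-LV5, and PRPF4 read 11.08 in A549-ZNF300 and 9.79 in A549-LV5. HNRNPK, an RNA-binding protein, and RMI1 start 144 bases apart and were also both higher, with HNRNPK at 14.24 in A549-ZNF300 and 13.71 in A549-LV5 and RMI1 at 10.71 in A549-ZNF300 and 9.60 in A549-LV5. The last pair differed. C5, the complement component, read 9.70 in A549-ZNF300 and 7.81 in A549-LV5, while CNTRL, a centriole protein whose start lies 90 bases away, read 7.90 in A549-ZNF300 and 8.15 in A549-LV5. The sequences are RefSeq promoter windows on the plus strand of GRCh38.p14, of PRPF4 at chr9:113275408-113275707, of RMI1 at chr9:83980109-83980408 and of CNTRL at chr9:121074705-121075004, with the bases of both starts and all between them in capitals.
CDC26/PRPF4: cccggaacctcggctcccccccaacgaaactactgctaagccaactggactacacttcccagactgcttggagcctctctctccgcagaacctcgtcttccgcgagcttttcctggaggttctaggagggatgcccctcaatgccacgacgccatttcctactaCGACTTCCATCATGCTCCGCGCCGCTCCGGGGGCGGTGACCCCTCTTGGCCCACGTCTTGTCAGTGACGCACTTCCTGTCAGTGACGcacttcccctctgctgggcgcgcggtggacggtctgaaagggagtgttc
HNRNPK/RMI1: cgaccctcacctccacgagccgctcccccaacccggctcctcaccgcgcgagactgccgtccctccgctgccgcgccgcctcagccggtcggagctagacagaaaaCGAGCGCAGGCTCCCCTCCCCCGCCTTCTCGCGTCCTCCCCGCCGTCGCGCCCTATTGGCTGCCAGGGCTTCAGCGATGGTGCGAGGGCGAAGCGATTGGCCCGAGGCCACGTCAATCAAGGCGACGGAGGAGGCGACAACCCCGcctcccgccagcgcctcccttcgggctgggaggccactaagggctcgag
C5/CNTRL: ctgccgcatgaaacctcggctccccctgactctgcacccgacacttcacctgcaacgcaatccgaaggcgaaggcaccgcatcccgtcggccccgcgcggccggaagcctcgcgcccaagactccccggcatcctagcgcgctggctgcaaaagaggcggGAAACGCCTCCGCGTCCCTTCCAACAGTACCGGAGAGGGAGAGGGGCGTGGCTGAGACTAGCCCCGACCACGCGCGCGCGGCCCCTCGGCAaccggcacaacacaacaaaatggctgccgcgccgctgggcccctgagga

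Of the other pairs, BAG1 and CHMP5, a subunit of the ESCRT-III complex, were both higher, at 2.44 and 0.45, and APTX, which repairs abortive DNA ligation, and DNAJA1 had 0.76 and 1.12. RFK, the riboflavin kinase, and GCNT1 stood the farthest apart, with RFK at 12.49 in A549-ZNF300 and 11.37 in A549-LV5 and GCNT1 at -2.97. RPL12 and LRSAM1, a ubiquitin ligase, were lower together, at -0.39 and -0.15. ERP44, an oxidoreductase of the early secretory pathway, and INVS, a protein of primary cilia, were the other pair below 0, at -0.06 and -0.23, and that of ERP44 turns positive when the arrays are centred on their medians.

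The threshold that admitted members lay among dim genes. Just inside it were the zinc finger gene ZNF483, at 5.53 in A549-ZNF300 and 6.18 in A549-LV5, and the homeobox gene BARHL1, at 6.04 in A549-ZNF300 and 5.79 in A549-LV5. Just outside were LINGO2, a neuronal leucine-rich repeat gene, at 6.03 in A549-ZNF300 and 5.47 in A549-LV5, and CDKN2A, given above.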

How the data were processed

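The authors deposited log2 signals of 54675 probe sets for each of 2 arrays, A549-ZNF300 and A549-LV5, with 1 array per condition, normalized before deposit. The submitters' processing notes name MAS5 and affy, without versions, and the methods name SCAN and UPC. Which of them made the signals is not stated in the sources used here, and neither is a genome build. A smaller table that the authors deposited holds their present, marginal and absent calls, which were used as given, and their own ratio and direction of change, which were not used.

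Signals were used as deposited, without further scaling. Of the probe sets, 41097 name 1 gene, 1801 several and 11777 none, and the first were used, placed by gene identifier in the RefSeq annotation of GRCh38.p14 (42 identifiers were not placed). The median of an array over all probe sets was the limit of detection. With 1 array per condition no test was possible: counts are of genes at least 2-fold apart, set beside all detected genes, and having 2 arrays is what limits the precision. The gene lists hold some genes of mixed role and are descriptive.

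The members, the lists and the rule for naming genes were chosen with earlier results of these data known. The rule took the 12 bright genes with the largest differences on each side, the 8 brightest genes, up to 4 members of each list by difference and 2 by signal, up to 2 genes per window and side, a set of well known genes of the chromosome, head-to-head pairs, genes next to the detection limit, and the check lists. Genes named only as examples of a list beyond it, among them FANCG, PHF19, EXOSC3, POLR1E, SNAPC3, RXRA, NTRK2, TRAF1, RALGDS, LCN2, NDUFA8, LHX6 and ST6GALNAC6, were chosen after their values were seen.

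Alternatives were median centring, quantile normalization, centring on housekeeping genes or on genes outside chromosome 9, other filters on dim probe sets, other choices of probe set, raising or offsetting low signals, and thresholds of 1.5-fold and 3-fold. Scripts ran in Python 3.11.15 with numpy 2.4.6, pandas 2.3.3, scipy 1.17.1 and matplotlib 3.10.9, and were tested on simulated data.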

Additional observations from a re-analysis of the deposited data

How the results depend on the processing

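The median difference of chromosome 9 stayed above 0 and above that of genes elsewhere under all 11 alternatives, between 0.26 and 0.45, and lay 0.35 to 0.49 above the genes elsewhere. Of these, 3 centrings move all genes by a constant and leave that distance at 0.42 by construction. Centring the arrays on their medians moved the median of all genes by 0.11, and gave a chromosome 9 median of 0.45, 71.4% of genes higher and a long arm median of 0.44. Centring on 19 housekeeping genes gave 0.26, a long arm median of 0.25 and a median of -0.072 in window 2. Without a filter on dim probe sets, the median was 0.26, 60.6% of 776 genes were higher, 175 were up and 124 down by 2-fold or more, where all genes had 17% up and 19.5% down, and window 5 had a median of -3.06. Requiring the median in both arrays left 88 genes up and 29 down, against 9.31% and 11.6% of all genes. A filter at the 75th percentile gave a median of 0.44, 72.9% higher, 83 genes up and 19 down by 2-fold or more, against 11.6% and 12.5% of all genes, and a long arm median of 0.43. At 1.5-fold, 198 of 538 genes were higher and 85 lower, against 22.5% and 26.5% of all genes, and at 3-fold 56 were higher and 23 lower, against 7.64% and 7.59%. The long arm minus the short arm lay between -0.05 and 0.13. ZNF883 had -0.050 with low signals raised to the array median. Of 1800 values of named genes under these settings, 1723 moved by less than 0.30, the median spread between probe sets of a gene. Much of that count was fixed in advance. The 3 centrings shift every gene by a constant smaller than that spread, and most filters keep the same brightest probe set for most genes. With the median over its detected probe sets, TGFBR1 had 0.35, RALGPS1 -0.36 and MTAP 0.24. No paired analysis was possible because there was 1 array per condition, and no array could be left out. Signals below the array median, which lie near background, limit every fold that rests on them.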

Other observations

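Some RNAs of chromosome 9 fell outside the gene lists. Among long non-coding RNAs, LOC105376292 read 8.22 in A549-ZNF300 and 3.73 in A549-LV5, LINC01503 read 8.0 in A549-ZNF300 and 4.72 in A549-LV5, and LINC00963 read 8.03 in A549-ZNF300 and 6.48 in A549-LV5. The first 2 were below the array median in A549-LV5. These 3 lie next to each other in the run of higher genes between PTPA and PTGES. GLIDR read 9.84 in A549-ZNF300 and 8.44 in A549-LV5. On the lower side, NALT1, which lies beside NOTCH1, read 6.58 in A549-ZNF300 and 8.07 in A549-LV5, and CNTFR-AS1 read 3.28 in A549-ZNF300, below the array median, and 6.23 in A549-LV5. These RNAs were named after their values were seen.

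Probe sets annotated to several genes were left out of the members, and 16 of them were detected and had all their genes on chromosome 9. They had a median difference of -0.10, with 5 higher and 11 lower, with 3 up and 1 down by 2-fold or more. Several read the same genes, so the 16 are not separate loci. Among them were 3 probe sets for RPL7A, a ribosomal protein gene that hosts small nucleolar RNAs, which lay between -0.11 and -0.06, near the values of RPL35 and RPS6.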
